A study of Mus musculus with 8 samples.

Results

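Imprinted genes are transcribed mainly from the chromosome inherited from 1 parent, and 35 mouse genes of this kind, among 55421 gene identifiers in the count table, were followed across 4 groups of embryonic stem cells. They were taken as a named list by a rule that uses no measured value, though the list was drawn up with earlier results of these data known. They were sorted into 19 loci and by the parental allele that is known to be expressed. By that record 19 are paternally expressed, 11 are maternally expressed and 5 are mixed, meaning that the expressed allele depends on tissue or transcript form. A locus usually holds a stretch of DNA that is methylated on a single parental copy, and this mark sets which copy is active in clusters of neighbouring genes. Several clusters hold a long noncoding RNA made from 1 parental copy that silences its neighbours in cis, such as Kcnq1ot1 and Airn. Many imprinted genes act on fetal and placental growth, and imprints are known to be prone to change when embryonic stem cells are kept in culture. The counts measured here add up both parental copies, so they give the level of each gene and not the allele it came from.

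The libraries came from E14 mouse embryonic stem cells of 129/Ola background, a blastocyst-derived line grown on gelatin in serum with LIF. Cells with a knockout of the microRNA cluster miR-290-295 (KO), untreated, were set against untreated wild-type cells (WT). In a second set, KO cells received for 36 hours a 5 nM siPOOL, a mixture of small interfering RNAs, against the transcription factor gene Tfap4 (siTfap4) or a negative control pool (siNeg), so both groups of this set lack the cluster. Each group had 2 biological duplicates, described as such by the submitters, and whether the KO duplicates are separate clones was not given in the sources used here. Libraries of each set were prepared apart, and the siPOOL cells were also transfected, so preparation and transfection cannot be told apart and KO was not tested against siNeg. The comparisons share no library. The samples are bulk cultures, in which fewer cells of a type and less RNA per cell cannot be told apart.

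Libraries held between 8326675 and 12726123 counts from QuantSeq, which sequences the 3′ ends of polyadenylated RNA. Levels are CPM (counts set to a common library size), scaled with TMM factors. Calls are those of edgeR's quasi-likelihood test at a Benjamini-Hochberg adjusted p under 0.05 over 15137 tested genes. Tfap4 stood at 45.5 ± 4.91 CPM in KO against 18.0 ± 2.32 CPM in WT cells, and at 14.1 ± 2.44 CPM in siTfap4 against 35.9 ± 2.06 CPM in siNeg cells (SD, n = 2 each). Entries of the deleted cluster held 0 counts in the 6 libraries of KO cells, against 88 and 39 in WT libraries, as the labels say. Duplicates differed by more than counting error in every group, with a chi-square per degree of freedom of 11.3 in KO, 18.9 in WT, 30.5 in siTfap4 and 37.7 in siNeg. Of the pluripotent stem cell markers all 9 were tested. They summed to 3660 and 3730 CPM in KO, 3400 and 3830 CPM in WT, 2460 and 2670 CPM in siTfap4 and 3680 and 3470 CPM in siNeg libraries. Klf4 fell by 1.59 on the log2 scale in KO cells (adjusted p = 0.00103 in edgeR). In siTfap4 cells Pou5f1 rose (1.02), and Nanog (-1.49) and Dppa5a fell. The log2 fold change of Dppa5a was -6.05 with DESeq2, and from -6.86 to -5.57 in edgeR without any 1 library. The shares over all tested genes were 5.99% higher and 3.96% lower in KO, and 4.36% higher and 11.1% lower in siTfap4. The Pou5f1 call was lost without siTfap4 replicate 1 (adjusted p = 0.114 in edgeR) or siNeg replicate 1 (0.0934), and the Nanog call without siNeg replicate 1 (0.0577).

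The sequences that define the comparison are mature microRNAs of the deleted cluster, of which 6 of the 3p arms are shown with the seed (bases 2 to 8) in capitals, from RefSeq on GRCm38.p6, chromosome 7, plus strand. The 3p arms of miR-291a, miR-294 and miR-295 share the seed AAGUGCU. Those of miR-290a (AAGUGCC) and miR-291b (AAGUGCA) also begin with AAGUGC, and that of miR-293 has a seed outside this family. The 3p arm of miR-292a was missing from the sequences used here and is not shown.
miR-290a-3p: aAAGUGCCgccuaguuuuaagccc
miR-291a-3p: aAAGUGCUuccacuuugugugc
miR-291b-3p: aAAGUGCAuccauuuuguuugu
miR-293-3p: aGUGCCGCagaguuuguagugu
miR-294-3p: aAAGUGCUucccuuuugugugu
miR-295-3p: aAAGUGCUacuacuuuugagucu

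In each gene's longest 3′ UTR annotated in GENCODE M21 (GRCm38), the words AGCACTT and GCACTTA, which pair with bases 2 to 8 of the AAGUGCU microRNAs and with bases 2 to 7 plus an A opposite the first base, were searched on the transcribed strand, and the words overlap in AGCACTTA. Of the 24 tested imprinted genes with a 3′ UTR, 10 held at least 1 of the words (41.7%), beside 2767 of 12787 tested genes (21.6%). The median 3′ UTR length was 1300 bases for these imprinted genes and 1322 bases for all. GCACTTA also pairs with bases 2 to 7 of the AAGUGCC and AAGUGCA microRNAs. The words GGCACTT and TGCACTT, which pair with bases 2 to 8 of these microRNAs, were not searched. The counts given here thus cover the searched words only. Of the 8 imprinted genes called in KO cells, Grb10 and Impact held 1 of the searched words each. Phlda2, Ascl2, Slc22a18, Peg3 and Zdbf2 held 0, and H19 has no 3′ UTR. The Grb10 match lies at chr11:11930795-11930824 on the minus strand and is shown because Grb10, an adaptor of insulin and IGF receptors, rose in KO cells. The capitals mark the word. The base before it is a T, so the stretch also holds TGCACTT, which pairs with bases 2 to 8 of the AAGUGCA microRNA.
Grb10 3′ UTR: ttcccctttctGCACTTAaatacctgacag
A match to a word is a description, and binding was not measured.

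Promoter windows ran from 250 bases before to 50 bases after a RefSeq start (GRCm38.p6). They were taken for 28 of the 35 genes, 42 windows in all. Impact is not among the 28, since windows on its chromosome were left out for imprinted genes but kept among all windows. The word TGCCGC, which the imprint-protecting zinc finger protein ZFP57 recognises when methylated, was searched on both strands. It was present in 12 of the 42 windows (28.6%), beside 11.6% of 32851 windows of all genes. These 12 windows belong to 11 genes, since the matching Mest windows are a pair that share 297 of 300 bases. Windows with at least 2 matches made up 1.5% of all windows and those with at least 3 made up 0.2%. The E-box CAGCTG, which TFAP4 binds and which reads the same on both strands, was present in 4 of the 42 windows (9.5%), beside 16.3% of all. The windows of imprinted genes held a median of 15 CpG sites and all windows a median of 7. Windows are shown for Zdbf2 and Mest, which hold 3 and 2 matches to TGCCGC (the other Zdbf2 window, chr1:63273019-63273318 at the start of the gene span given here, holds 0), and for Phlda2, which holds the E-box and had the largest change among the imprinted genes. The Nap1l5 window, not shown, also holds 2 matches to TGCCGC. The E-box also lies in the windows of Cd81 and Nap1l5 and in another Mest window. The capitals mark TGCCGC, or GCGGCA where the match is on the other strand, and in Phlda2 CAGCTG.
Zdbf2 upstream start, chr1:63200108-63200407, plus strand: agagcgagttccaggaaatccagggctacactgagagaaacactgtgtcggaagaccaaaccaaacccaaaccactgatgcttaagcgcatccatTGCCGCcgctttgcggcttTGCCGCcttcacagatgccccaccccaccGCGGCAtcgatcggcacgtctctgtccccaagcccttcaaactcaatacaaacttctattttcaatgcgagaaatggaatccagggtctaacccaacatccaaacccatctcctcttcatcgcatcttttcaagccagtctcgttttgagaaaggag
Mest, chr6:30737800-30738099, plus strand: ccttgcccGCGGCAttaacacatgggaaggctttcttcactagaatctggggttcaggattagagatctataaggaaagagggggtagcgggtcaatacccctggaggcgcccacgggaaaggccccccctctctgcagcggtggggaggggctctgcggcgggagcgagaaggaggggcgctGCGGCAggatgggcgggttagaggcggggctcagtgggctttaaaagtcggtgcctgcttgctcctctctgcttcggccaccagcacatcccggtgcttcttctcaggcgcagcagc
Phlda2, chr7:143502475-143502774, minus strand: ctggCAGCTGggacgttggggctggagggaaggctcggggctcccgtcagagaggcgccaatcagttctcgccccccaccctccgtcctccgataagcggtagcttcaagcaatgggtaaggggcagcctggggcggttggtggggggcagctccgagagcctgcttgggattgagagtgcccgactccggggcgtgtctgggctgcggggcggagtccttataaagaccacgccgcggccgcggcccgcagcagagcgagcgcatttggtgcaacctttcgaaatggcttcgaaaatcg
Neither methylation nor binding was measured, and the start in use is not known from 3′ counts.

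KO and WT cells were compared to ask which imprinted transcripts change where the microRNA cluster is missing. In KO cells 5 imprinted genes rose, namely H19, Peg3, Zdbf2, Grb10 and Impact. The 3 that fell, Phlda2, Ascl2 and Slc22a18, are all maternally expressed genes of the Kcnq1ot1 domain on chromosome 7. These 8 calls are among 29 imprinted genes that passed the filter on low counts. That is 17.2% higher and 10.3% lower, beside 5.99% higher and 3.96% lower over all tested genes. The median log2 fold change was -0.17 over the 29 genes and -0.01 over all tested genes. Of 14 tested paternally expressed genes 3 rose and 0 fell (Peg3, Zdbf2 and Impact; median 0.00). Of 10 maternally expressed genes 1 rose and 3 fell (median -0.17), and of 5 mixed genes Grb10 rose (median -0.17). No test was made over the list or between the allele classes.

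**Figure D1:**
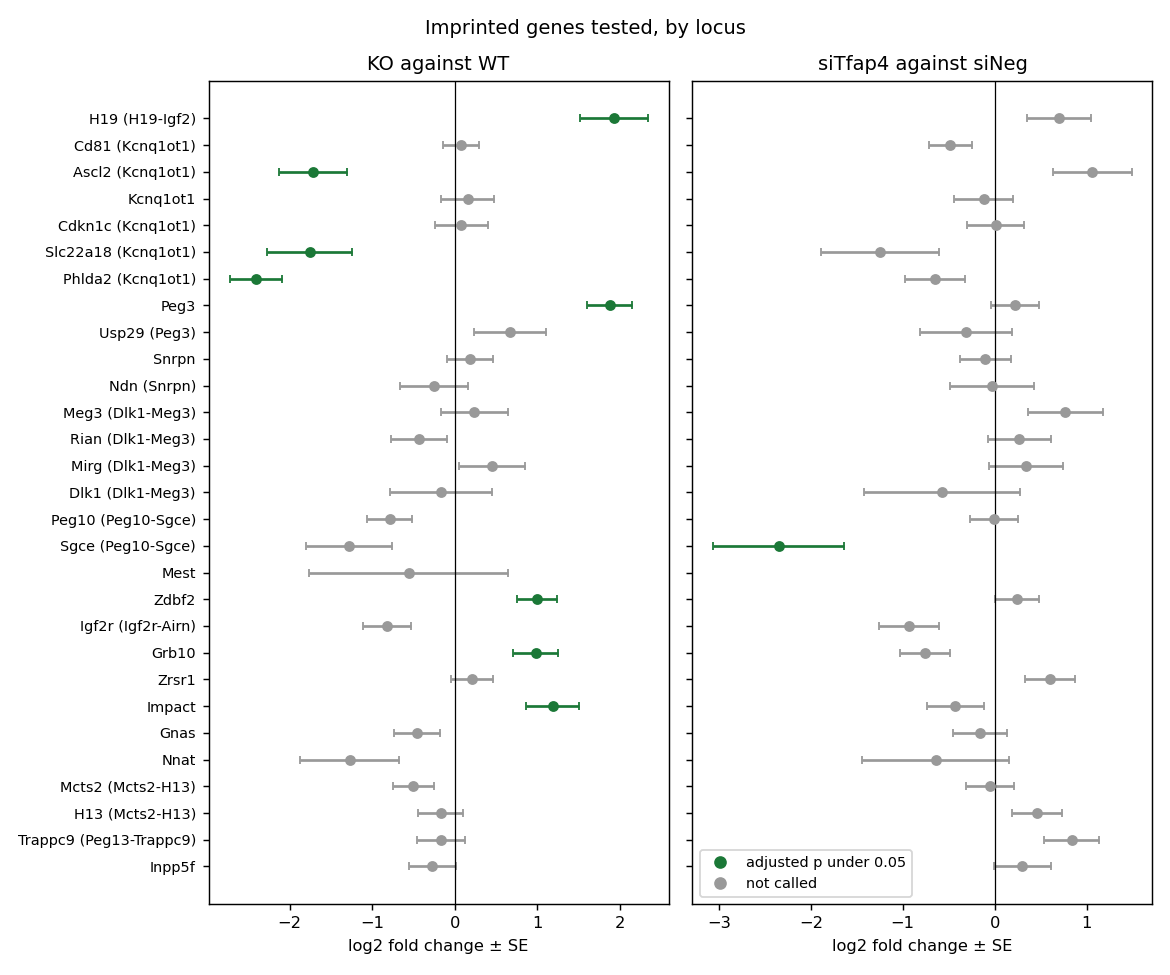
Log2 fold change ± SE of the tested imprinted genes, by locus, for KO against WT (left) and siTfap4 against siNeg (right); points in green have an edgeR adjusted p under 0.05. On the left 5 genes lie to the right of 0 and 3 to the left in green, and on the right Sgce alone is in green; Mest is left out on the right, since it held 1 to 6 counts in each siPOOL library.

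The number of calls rested on all 4 libraries. Fewer imprinted genes were called when any 1 of them was left out. Without KO replicate 1 the calls included Mest, which is not among the 8. Its log2 fold change there was -7.85. Phlda2 and Peg3 kept their calls in each of these fits. Of the 8 calls, 7 were kept in every other setting tried, the exception being Slc22a18.

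The Kcnq1ot1 domain spans the distal end of chromosome 7, where the paternal noncoding RNA Kcnq1ot1 silences maternally expressed genes on either side. All 6 listed genes of the domain were tested. Phlda2 (ENSMUSG00000010760, chr7:143501545-143503150, minus strand), which encodes a PH-domain protein that limits placental growth, had 332 and 288 counts in KO and 2036 and 981 counts in WT libraries. This is 25.4 and 23.8 CPM in KO against 165 and 95.1 CPM in WT. The groups did not overlap, and Phlda2 was 5.30-fold lower in KO cells (log2 fold change -2.41, SE 0.32, edgeR adjusted p = 0.000192). Over the fits without 1 library the log2 fold change ran from -2.75 to -1.94. Its level was 11.3 and 21.5 CPM in siTfap4 and 24.7 and 27.0 CPM in siNeg libraries (log2 fold change -0.65, adjusted p = 0.190 in edgeR), so the WT libraries stood apart from the other 6. The siTfap4 difference was called without siTfap4 replicate 2 (-1.20, adjusted p = 0.0463 in edgeR), but was -0.28 without siTfap4 replicate 1 (0.743) and -0.25 with a correction for base composition (0.631; -0.29 with the block, 0.482).

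Ascl2 and Slc22a18 also fell, with fewer counts behind each value. Ascl2, a basic helix-loop-helix factor of the trophoblast, had 22 and 25 counts in KO and 77 and 63 counts in WT libraries, or 1.68 and 2.06 CPM in KO against 6.26 and 6.11 CPM in WT. It was 3.30-fold lower in KO cells (log2 fold change -1.72, SE 0.41, edgeR adjusted p = 0.0135). The call was lost without KO replicate 1 (adjusted p = 0.137 in edgeR), KO replicate 2 (0.0729) or WT replicate 1 (0.0568). Slc22a18, a membrane transporter of the organic cation transporter family, had 13 and 18 counts in KO and 42 and 52 counts in WT libraries. It was 3.38-fold lower (log2 fold change -1.76, SE 0.51, edgeR adjusted p = 0.0378), a call that no fit without 1 of the 4 libraries kept (adjusted p 0.053 to 0.260). The Slc22a18 call was also lost with DESeq2 (0.100), limma-voom (0.0583) and the legacy quasi-likelihood fit (0.0800). The duplicates of either gene lay closer to each other than to the other group.

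The other genes of the domain had close levels in KO and WT cells. Kcnq1ot1 itself stood at 151 and 113 CPM in KO against 129 and 107 CPM in WT libraries (log2 fold change 0.16, SE 0.32). Cdkn1c, a cyclin-dependent kinase inhibitor, stood at 18.1 and 15.7 CPM in KO against 20.1 and 11.7 CPM in WT libraries (0.08, SE 0.32). Cd81, a tetraspanin gene, stood at 252 and 283 CPM in KO against 255 and 253 CPM in WT libraries (0.08, SE 0.22). In all 3 genes the groups overlapped and the difference was within its SE. Kcnq1 overlaps Kcnq1ot1 on the opposite strand and held 12 counts over the 8 libraries, against 15689 for Kcnq1ot1. Whether the counting used the strand is not given in the sources used here, so reads of genes that overlap on opposite strands, also Igf2r and Airn, Mest and Copg2, Zrsr1 and Commd1, or Nnat and Blcap, may not have been told apart. Among further imprinted genes of a list fixed for this work, Tspan32, a tetraspanin gene that lies between Ascl2 and Cd81, had 43 and 110 counts in KO and 22 and 5 counts in WT libraries (log2 fold change 2.37, SE 0.58, edgeR adjusted p = 0.0162). Dhcr7, which encodes the last enzyme of cholesterol synthesis and lies further along the chromosome, fell (-1.11, SE 0.29, edgeR adjusted p = 0.0222). Tspan32 lost its call without KO replicate 2 (1.48, adjusted p = 0.245 in edgeR) or WT replicate 2 (1.78, 0.120) and on the 4 libraries alone (0.0543), and was at 3.64 without WT replicate 1. Dhcr7 lost it without KO replicate 1 (0.0710), KO replicate 2 (0.238) or WT replicate 2 (0.187).

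In siTfap4 against siNeg cells none of the 6 genes of the domain was called. Ascl2 stood at 6.24 and 3.89 CPM in siTfap4 against 2.48 and 2.32 CPM in siNeg libraries (log2 fold change 1.06, SE 0.43, edgeR adjusted p = 0.105). Slc22a18 stood at 1.66 and 0.354 CPM in siTfap4 against 2.48 and 2.23 CPM in siNeg libraries (-1.25, SE 0.64). The siTfap4 duplicates of Slc22a18, at 13 and 3 counts, differed more than the groups' nearest libraries. Cd81 stood at 181 and 233 CPM in siTfap4 against 272 and 305 CPM in siNeg libraries (-0.48, SE 0.23). Cdkn1c differed by 0.01 (SE 0.31), with 27.8 and 46.1 CPM in siTfap4 against 33.1 and 40.3 CPM in siNeg libraries. Kcnq1ot1 ranged from 150 to 364 CPM between the siNeg duplicates and stood at 249 and 224 CPM in siTfap4 libraries.

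**Figure D2:**
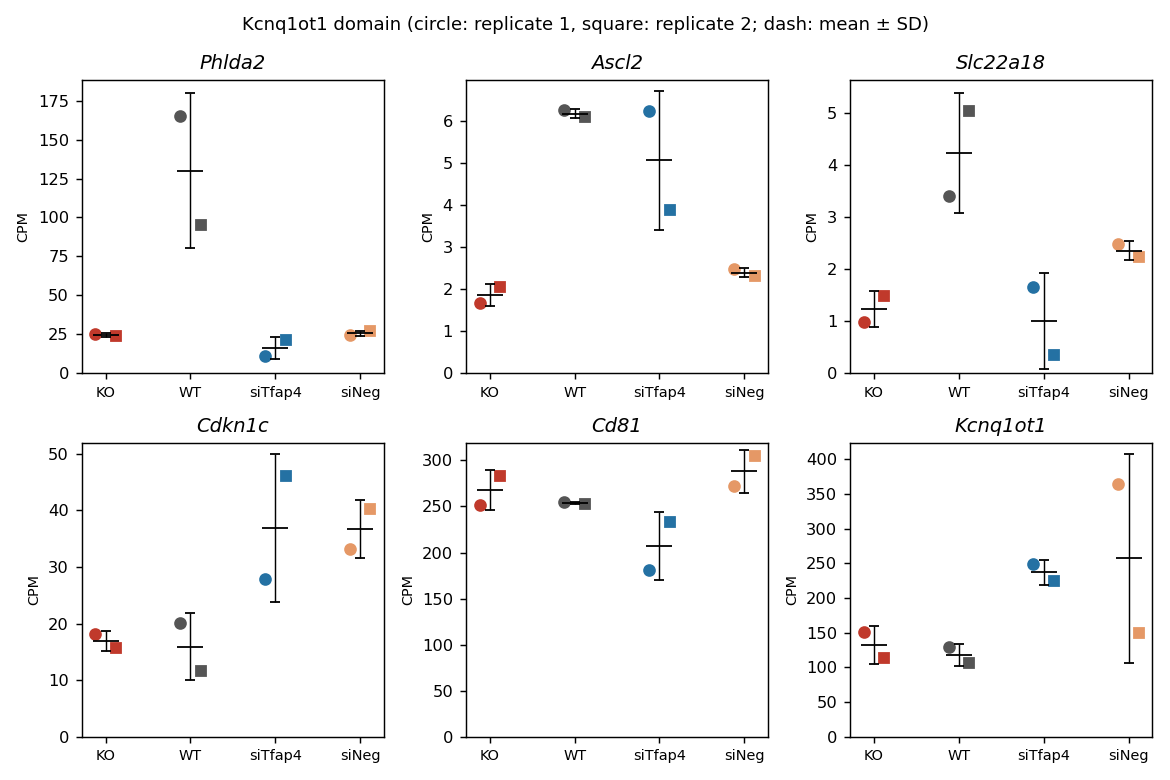
CPM of the 6 imprinted genes of the Kcnq1ot1 domain in each library (circle: replicate 1; square: replicate 2), with mean ± SD of n = 2 for KO, WT, siTfap4 and siNeg. Phlda2, Ascl2 and Slc22a18 are lower in both KO libraries than in both WT libraries, while Cdkn1c, Cd81 and Kcnq1ot1 overlap.

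Phlda2 and Ascl2 are also known as genes of extraembryonic tissue, so markers of such cells were measured beside them. Of 12 extraembryonic endoderm markers 11 were tested. In KO cells 8 fell and 0 rose (median log2 fold change -2.69), beside 3.96% lower and 5.99% higher over all tested genes. The list summed to 93.4 and 74.7 CPM in KO against 318 and 299 CPM in WT libraries, and to 129 and 90.0 CPM in siTfap4 against 112 and 86.7 CPM in siNeg libraries. The largest falls were those of Dab2 (-4.39), Col4a1 (-3.96), Pdgfra (-3.62), Gata6 (-3.34), Col4a2 (-3.18) and Sox17 (-2.69), each called without any 1 library. Gata6, a defining transcription factor of the lineage, had 13 and 21 counts in KO against 193 and 123 counts in WT libraries, and Sox17 was at 0.841 and 0.577 CPM in KO against 5.04 and 4.26 CPM in WT. Afp had 1 count in 1 WT library and 0 in the other 7 libraries. Of 11 trophoblast markers 9 were tested. Tfap2c (1.77) and Krt7 (1.33) rose in KO cells while none fell, beside the same shares over all tested genes. Krt7 lost its call in each fit that left out a library (adjusted p 0.115 to 0.244 in edgeR) and in 5 of 10 other settings. The trophoblast list summed to 417 and 286 CPM in KO against 119 and 139 CPM in WT libraries, most of it Tfap2c with 369 and 223 CPM in KO against 88.7 and 84.7 CPM in WT. Cdx2, a defining trophoblast gene, was under 1 CPM in all 8 libraries. In siTfap4 cells the trophoblast marker Plet1 fell, and the list summed to 189 and 309 CPM in siTfap4 against 255 and 322 CPM in siNeg libraries. Of 8 fibroblast or feeder markers 3 were tested. Col1a1 and Thy1 fell in KO cells, and Vim fell in siTfap4 cells. The share lower over all tested genes was 3.96% in KO and 11.1% in siTfap4. The list summed to 255 and 341 CPM in KO, 229 and 233 CPM in WT, 107 and 100 CPM in siTfap4 and 326 and 272 CPM in siNeg libraries. Col1a1 lost its call in each fit that left out a library (adjusted p 0.131 to 0.241 in edgeR) and in 6 of 10 other settings. Thy1 (-1.35) lost its call without KO replicate 1 (-0.92, 0.285) or WT replicate 2 (-0.86, 0.257) and on the 4 libraries alone (0.0561). The part of these marker levels in the imprinted genes' differences was not tested.

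H19 and Igf2 share enhancers on chromosome 7 and are expressed from opposite parental copies, H19 from the maternal copy as a noncoding RNA that restrains growth and Igf2 from the paternal copy as a fetal growth factor. H19 (ENSMUSG00000000031, chr7:142575529-142578143, minus strand) had 88 and 96 counts in KO and 17 and 26 counts in WT libraries, or 6.73 and 7.92 CPM in KO against 1.38 and 2.52 CPM in WT. It was 3.80-fold higher in KO cells (log2 fold change 1.93, SE 0.41, edgeR adjusted p = 0.00642), but not called once WT replicate 1 was left out (1.54, adjusted p = 0.0770 in edgeR). It stood at 11.6 and 10.4 CPM in siTfap4 against 6.17 and 7.36 CPM in siNeg libraries (0.70, SE 0.35, edgeR adjusted p = 0.180). The siTfap4 libraries were thus the highest of the 8 and the WT libraries the lowest.

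Igf2 had 0 counts in all 8 libraries, and this cannot be read as absence. The last 200 bases of Igf2 are shared in full (100%) with an overlapping readthrough gene, Gm49394, which was also at 0, and reads that fit both genes may have been left uncounted. A count of 0 allows up to 3 counts in a library, for counting error only. Of 12 genes of IGF signalling and its RNA-binding partners 11 were tested. Igf1, the growth factor related to Igf2, had 153 and 97 counts in KO against 10 and 6 counts in WT libraries and rose (log2 fold change 3.78, SE 0.54, edgeR adjusted p = 0.000336). The receptor gene Igf1r fell, with 33.0 and 46.4 CPM in KO against 73.3 and 99.2 CPM in WT libraries (-1.12, SE 0.30, edgeR adjusted p = 0.0268). The Igf1r call was lost without KO replicate 1 (adjusted p = 0.264 in edgeR), KO replicate 2 (0.0600) or WT replicate 2 (0.187). None of the 11 was called in siTfap4 cells. The shares over all tested genes were 5.99% higher and 3.96% lower in KO, and 4.36% higher and 11.1% lower in siTfap4.

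Igf2r, the receptor that clears IGF2, and Airn, the paternal antisense RNA that silences it, overlap on opposite strands of chromosome 17. Igf2r stood at 53.1 and 42.0 CPM in KO against 82.7 and 85.6 CPM in WT libraries. The groups did not overlap, but the difference was not called (log2 fold change -0.82, SE 0.29, edgeR adjusted p = 0.0880). It was called with the replicate number as a block and a correction for base composition (adjusted p = 0.0452) and on the 4 libraries alone (0.0174). In siTfap4 cells Igf2r stood at 11.8 and 11.2 CPM against 29.5 and 14.2 CPM in siNeg cells (-0.93, SE 0.33, edgeR adjusted p = 0.0643). That difference was called with DESeq2 (0.0405), with no filter on low counts (0.0450) and without siNeg replicate 2 (-1.37, adjusted p = 0.00985). It shrank to -0.32 without siNeg replicate 1 (adjusted p = 0.589 in edgeR) and to -0.33 with the correction for base composition (0.462; -0.29 with the block, 0.476). Airn had 0 and 0 counts in KO against 2 and 3 counts in WT libraries, and 0 and 1 counts in siTfap4 against 7 and 0 counts in siNeg libraries, too few to test.

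Grb10 is expressed from the maternal copy in most tissues and from the paternal copy in neurons. It had 4318 and 2560 counts in KO and 1589 and 1506 counts in WT libraries, or 330 and 211 CPM in KO against 129 and 146 CPM in WT. It was 1.97-fold higher in KO cells (log2 fold change 0.98, SE 0.27, edgeR adjusted p = 0.0312), with KO replicate 1 well above replicate 2. Without KO replicate 1 the log2 fold change was 0.62 (adjusted p = 0.404 in edgeR), and the call was also lost without WT replicate 1 (0.171) or WT replicate 2 (0.102). In siTfap4 cells Grb10 stood at 93.6 and 150 CPM against 192 and 222 CPM in siNeg cells (-0.76, SE 0.27, edgeR adjusted p = 0.0682). It was called lower there without siTfap4 replicate 2 (-1.16, adjusted p = 0.0185) and with no filter on low counts (0.0442), but was -0.47 without siTfap4 replicate 1 (0.439) and -0.45 with the correction for base composition (0.281; -0.46 with the block, 0.201). The neighbour Ddc, which encodes an amino acid decarboxylase and is imprinted in heart, rose in KO cells, with 79.7 and 71.0 CPM in KO against 24.5 and 17.0 CPM in WT libraries (1.86, SE 0.26, edgeR adjusted p = 0.000311), and kept its call without any 1 library.

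The Peg3 locus, at the proximal end of chromosome 7, holds the paternally expressed Peg3 and Usp29 and the maternally expressed Zim1. Peg3 (ENSMUSG00000002265, chr7:6703892-6730431, minus strand) encodes a zinc finger protein that acts in growth and maternal behaviour. It had 852 and 719 counts in KO and 207 and 176 counts in WT libraries, or 65.1 and 59.3 CPM in KO against 16.8 and 17.1 CPM in WT. The duplicates lay close together and the groups far apart, with Peg3 3.67-fold higher in KO cells (log2 fold change 1.88, SE 0.27, edgeR adjusted p = 0.000347; 1.81 to 1.95 without any 1 library). In the siPOOL set it stood at 65.0 and 51.5 CPM in siTfap4 against 59.9 and 39.8 CPM in siNeg libraries (0.22, SE 0.26). Usp29, a deubiquitinase family gene that starts beside Peg3 on the other strand, had 51 and 34 counts in KO against 31 and 17 in WT libraries (0.67, SE 0.44, edgeR adjusted p = 0.398). Zim1, another zinc finger gene, had 0 to 5 counts in each of the 8 libraries and was not tested.

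Zdbf2 and Impact are paternally expressed genes that each make up their own locus in this list. Zdbf2 (chr1:63273265-63314576, plus strand), a zinc finger gene, stood at 363 and 371 CPM in KO against 162 and 204 CPM in WT libraries. It was 2.01-fold higher in KO cells (log2 fold change 1.00, SE 0.24, edgeR adjusted p = 0.0147). The call was lost without KO replicate 1 (adjusted p = 0.0917 in edgeR), KO replicate 2 (0.0952) or WT replicate 1 (0.141). Its siPOOL levels were 478 and 326 CPM in siTfap4 against 364 and 316 CPM in siNeg libraries (0.24, SE 0.24), all above the WT levels. Impact (chromosome 18), which inhibits the stress kinase GCN2, stood at 89.0 and 76.7 CPM in KO against 41.0 and 31.5 CPM in WT libraries. It was 2.28-fold higher (1.19, SE 0.32, edgeR adjusted p = 0.0242), a call that no fit without 1 of the 4 libraries kept (adjusted p 0.0507 to 0.167), with log2 fold changes of 1.02 to 1.40. In the siPOOL set the Impact duplicates of siNeg lay far apart, with 57.0 and 43.8 CPM in siTfap4 against 92.5 and 42.7 CPM in siNeg libraries (-0.43, SE 0.31).

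**Figure D3:**
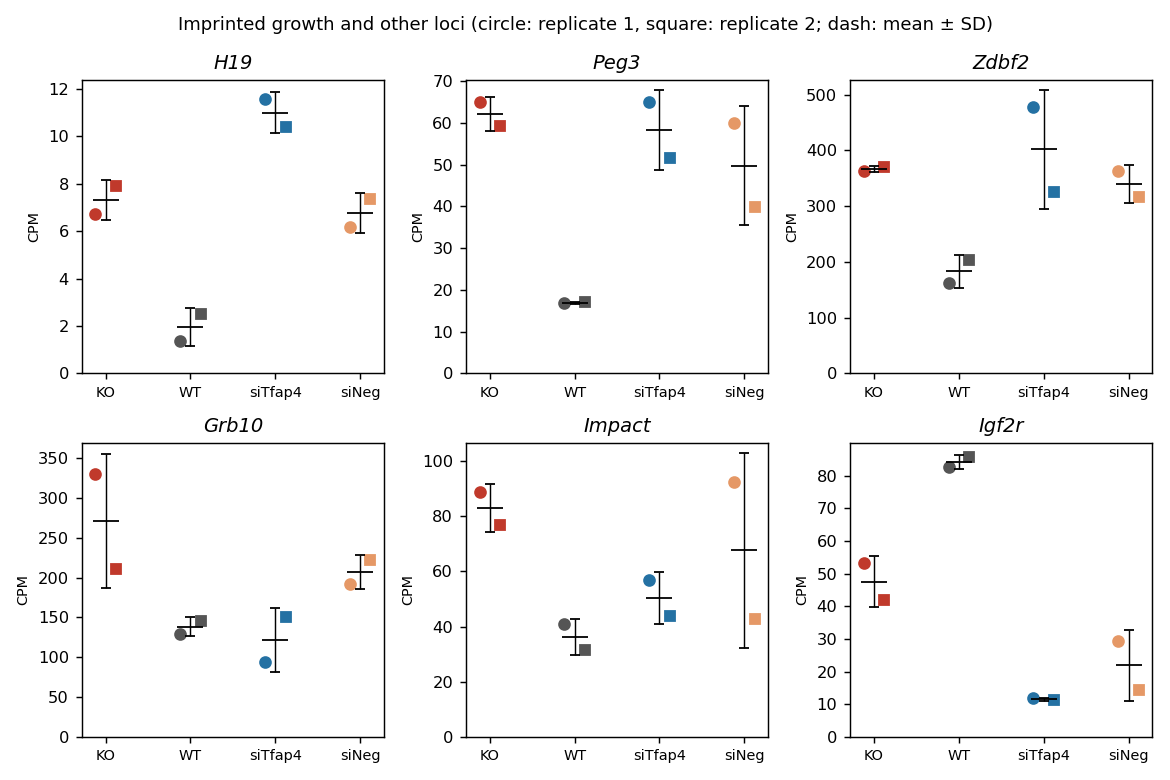
CPM of H19, Peg3, Zdbf2, Grb10, Impact and Igf2r in each library (circle: replicate 1; square: replicate 2), with mean ± SD of n = 2 for KO, WT, siTfap4 and siNeg. In the first 5 panels both KO libraries lie above both WT libraries, and Igf2r lies the other way round; the siNeg libraries of Peg3, from 39.8 to 59.9 CPM, lie above the WT libraries.

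Mest differed more between the KO duplicates than any other tested gene. Mest is a paternally expressed gene of chromosome 6 (ENSMUSG00000051855, chr6:30723547-30748465, plus strand) that encodes a protein of the alpha/beta hydrolase family. It had 720 counts in KO replicate 1 and 2 counts in KO replicate 2, against 639 and 305 counts in WT libraries. The siPOOL libraries, which are KO cells too, had 2 and 1 counts in siTfap4 and 6 and 3 counts in siNeg. In CPM it was 55.1 and 0.165 in KO against 51.9 and 29.6 in WT libraries. KO replicate 1 was thus slightly above both WT libraries, and the other 5 libraries of KO cells were near 0. The difference between the KO duplicates was 6.38 on the log2(CPM + 0.5) scale, the first of 15137 genes ranked by its size, and 4 genes exceeded 3 on this scale.

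With such a split the group comparison of Mest gave no call (log2 fold change -0.56, SE 1.21, edgeR adjusted p = 0.843). Without KO replicate 1 the fitted value was -7.85 (adjusted p = 1.54e-06 in edgeR), which rests on 2 counts in the remaining KO library, and without KO replicate 2 it was 0.44. No fold is given for siTfap4 against siNeg, since these groups summed to 3 and 9 counts. A search over all genes found 2 with at least 10 CPM in KO replicate 1 and under 1 CPM in KO replicate 2 and the 4 siPOOL libraries, Mest and Nlrp12. Of these Mest alone was also at 10 CPM or more in both WT libraries. The reverse pattern was found in 0 genes, with KO replicate 2 high and KO replicate 1 and the siPOOL libraries low. Nlrp12, an innate immune gene whose span overlaps the deleted cluster on the minus strand, had 161 counts in KO replicate 1, 1 in WT replicate 2 and 0 in the other 6 libraries. The labels of KO replicate 1 and KO replicate 2 carry different suffixes that they do not explain, and KO replicate 2 shares its suffix with WT replicate 1. The WT duplicates also carry suffixes that differ from each other and are not explained. Copg2, a coat protein gene on the other strand that overlaps the 3′ end of Mest, had 729 and 802 counts in KO, 712 and 829 in WT, 428 and 444 in siTfap4 and 586 and 370 in siNeg libraries. It was not called in either comparison (log2 fold changes -0.18 and 0.31), and its counts did not show the split seen for Mest. How reads from the overlap of Mest and Copg2 were assigned is not known.

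**Figure D4:**
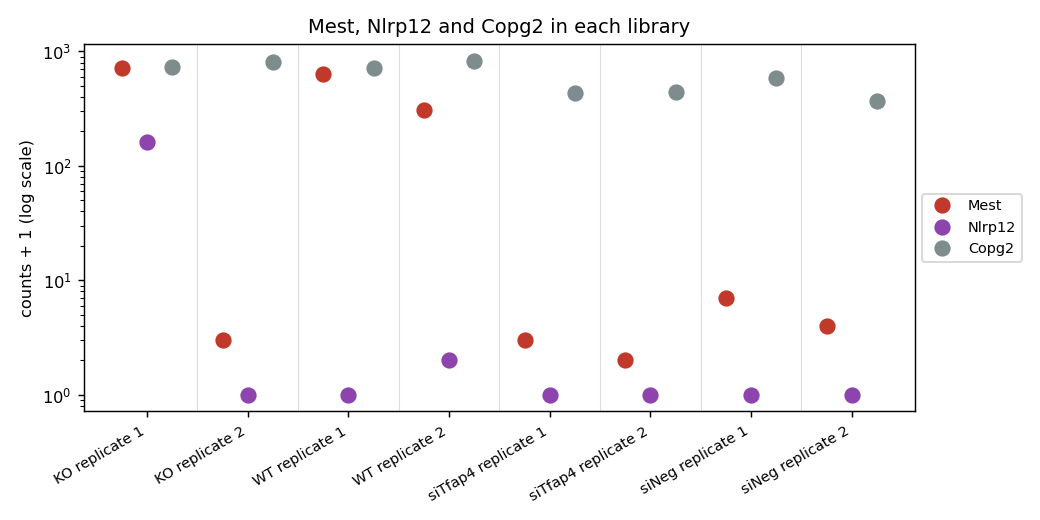
Counts + 1 on a log scale for Mest, Nlrp12 and Copg2 in each of the 8 libraries, KO left of WT and siTfap4 left of siNeg. Mest is at 305 to 720 counts in KO replicate 1 and both WT libraries and at 1 to 6 counts in the other 5, Nlrp12 is high in KO replicate 1 alone, and Copg2 stays between 370 and 829 counts.

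The Dlk1-Meg3 locus on chromosome 12 holds the maternally expressed noncoding RNAs Meg3, Rian (a host of small nucleolar RNAs) and Mirg (a host of microRNAs), and the paternally expressed Dlk1, which encodes a transmembrane protein with EGF-like repeats. None of the 4 was called in either comparison with all libraries and no correction. Meg3 (chr12:109541001-109571726, plus strand) stood at 634 and 819 CPM in KO against 414 and 818 CPM in WT libraries (log2 fold change 0.24, SE 0.41). It stood at 1930 and 844 CPM in siTfap4 against 1040 and 587 CPM in siNeg libraries (0.77, SE 0.41, edgeR adjusted p = 0.224). The siTfap4 difference rested on single libraries: it was 0.05 without siTfap4 replicate 1 (adjusted p = 0.973 in edgeR), 0.41 without siNeg replicate 2 (0.627), 1.23 without siNeg replicate 1 (0.200), and called without siTfap4 replicate 2 (1.24, 0.0412). Rian stood at 41.7 and 45.4 CPM in KO against 38.5 and 78.8 CPM in WT libraries, and at 92.5 and 63.6 CPM in siTfap4 against 83.7 and 45.7 CPM in siNeg libraries (0.27, SE 0.34). With the correction for base composition the siTfap4 difference of Rian was 0.82 (adjusted p = 0.118 in edgeR), and with the block as well it was called (0.81, 0.0476). Mirg stood at 70.4 and 113 CPM in KO against 48.8 and 84.9 CPM in WT libraries, and at 110 and 62.4 CPM in siTfap4 against 93.3 and 43.2 CPM in siNeg libraries. In all 3 RNAs the groups overlapped in both comparisons.

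Within each group the 3 noncoding RNAs were higher in the same duplicate. In 4 of 4 groups the library with more Meg3 also had more Rian and more Mirg. That library was replicate 2 in KO and WT and replicate 1 in siTfap4 and siNeg. In KO the Rian levels, 41.7 and 45.4 CPM, were close. Dlk1 had 24 and 33 counts in KO against 54 and 5 counts in WT libraries, and 6 and 11 counts in siTfap4 against 18 and 16 counts in siNeg libraries. The WT library with less Meg3 thus had the most Dlk1 of all 8, at 4.39 CPM, and the other WT library the least, at 0.485 CPM. Dlk1 and Meg3 were higher in opposite duplicates in WT, siTfap4 and siNeg and in the same duplicate in KO. In siNeg the Dlk1 levels, 1.54 and 1.55 CPM, hardly differed. Rtl1, another paternally expressed gene of the region in the fixed list, held 1 count over the 8 libraries. Dio3, a deiodinase gene at the far end of the locus, rose in KO cells, with 63 and 161 counts in KO against 35 and 8 counts in WT libraries (log2 fold change 2.26, SE 0.57, edgeR adjusted p = 0.0206). The Dio3 call was lost without KO replicate 2 (1.37, adjusted p = 0.263) or WT replicate 2 (0.140), with the replicate number as a block (0.0534) and on the 4 libraries alone (0.0578), and the value was 3.53 without WT replicate 1.

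**Figure D5:**
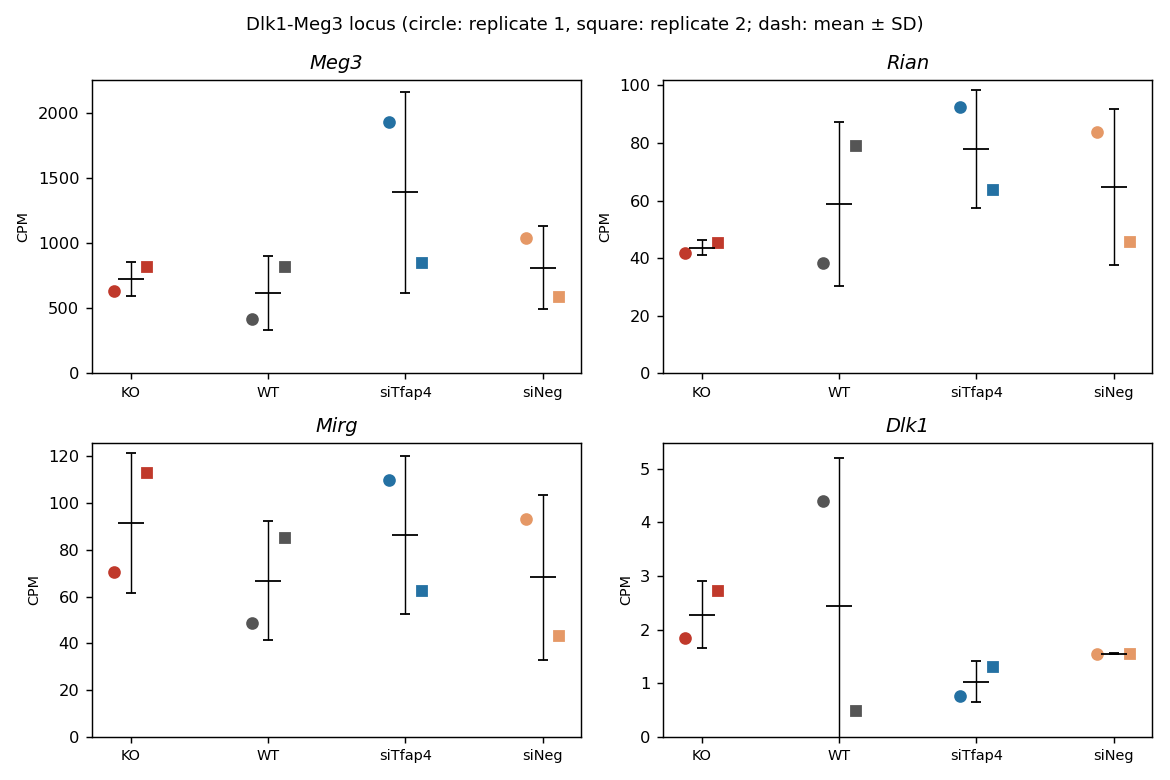
CPM of Meg3, Rian, Mirg and Dlk1 in each library (circle: replicate 1; square: replicate 2), with mean ± SD of n = 2 for KO, WT, siTfap4 and siNeg; the bar of Dlk1 in WT is drawn from 0 up. Within every group the first 3 genes have the same library on top, and Dlk1 in WT spans 0.485 to 4.39 CPM.

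Peg10 and Sgce start beside each other on chromosome 6 and are both paternally expressed. Sgce, which encodes epsilon-sarcoglycan, was the only imprinted gene called in siTfap4 against siNeg cells. That is 1 lower and 0 higher of 29 tested (3.45% lower), beside 11.1% lower and 4.36% higher over all tested genes. Sgce had 5 and 10 counts in siTfap4 against 88 and 18 counts in siNeg libraries, or 0.637 and 1.18 CPM in siTfap4 against 7.54 and 1.74 CPM in siNeg. The groups did not overlap, but siNeg replicate 1 was far above the other 3 libraries, and the fall was 5.10-fold with it (log2 fold change -2.35, SE 0.71, edgeR adjusted p = 0.0351). Without siNeg replicate 1 the log2 fold change was -0.93 (adjusted p = 0.516). The call was also lost without siTfap4 replicate 1 (0.290) or siTfap4 replicate 2 (0.0822), with limma-voom (0.0992) and with the replicate number as a block (0.0554). In KO cells Sgce had 43 and 24 counts against 75 and 70 counts in WT cells (-1.28, SE 0.52, edgeR adjusted p = 0.141). Peg10, a retrotransposon-derived gene needed in the placenta, stood at 58.6 and 58.9 CPM in KO against 94.3 and 109 CPM in WT libraries (-0.79, SE 0.27, edgeR adjusted p = 0.0733). Peg10 was called lower in KO cells with the replicate number as a block (0.0471) and on the 4 libraries alone (0.0149). It did not differ beyond its SE in the siPOOL set (-0.01, SE 0.26). The neighbour Casd1, a sialic acid acetyltransferase gene of the fixed list of other imprinted genes, rose in KO cells (1.37, SE 0.30, edgeR adjusted p = 0.00749). Casd1 lost its call without KO replicate 1 (0.0589) or WT replicate 2 (0.0785).

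The Snrpn locus, which lies in the mouse counterpart of the Prader-Willi region, showed no call. Snrpn, a small nuclear ribonucleoprotein gene, stood at 154 and 135 CPM in KO against 144 and 109 CPM in WT libraries (log2 fold change 0.19, SE 0.28), and at 109 and 196 CPM in siTfap4 against 141 and 184 CPM in siNeg libraries (-0.10, SE 0.28). Of the words in its last 200 bases 9.4% also occur in other genes. Ndn, a MAGE family gene, had 102 and 55 counts in KO against 95 and 72 in WT libraries, and 30 and 56 counts in siTfap4 against 39 and 77 in siNeg libraries (-0.25, SE 0.41, and -0.03, SE 0.46). In both genes the groups overlapped in both comparisons. Atp10a, a phospholipid flippase gene of the same chromosomal region in the fixed list, rose in KO cells with 41 and 37 counts against 11 and 9 counts in WT libraries (1.79, SE 0.53, edgeR adjusted p = 0.0419). Atp10a was not called in any fit that left out a library (adjusted p 0.137 to 0.163), with DESeq2 (0.115), limma-voom (0.0666) and the legacy fit (0.0682), and with the replicate number as a block (0.0567).

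On chromosome 2 lie Gnas, Nnat, Mcts2 and H13, and none was called. Gnas, the stimulatory G protein alpha subunit gene, stood at 121 and 141 CPM in KO against 187 and 175 CPM in WT libraries (log2 fold change -0.46, SE 0.28, edgeR adjusted p = 0.357). It stood at 90.5 and 63.1 CPM in siTfap4 against 113 and 59.0 CPM in siNeg libraries (-0.16, SE 0.29). The Gnas locus makes several transcripts from different parental copies that share their last exons, so 3′ counts add them up. Nnat, which encodes a small membrane proteolipid, had 7 and 8 counts in KO against 22 and 11 counts in WT libraries (-1.27, SE 0.60, edgeR adjusted p = 0.218), and 5 and 3 counts in siTfap4 against 10 and 7 counts in siNeg libraries. Mcts2, a retrogene inside an intron of H13, had 344 and 306 counts in KO against 517 and 320 counts in WT libraries (-0.50, SE 0.25). Of the words in its last 200 bases 13.5% also occur in another gene. H13, which encodes signal peptide peptidase and ends at different sites on each parental copy, stood at 19.1 and 21.8 CPM in KO against 20.2 and 25.7 CPM in WT libraries (-0.17, SE 0.27). In the siPOOL set H13 stood at 34.4 and 36.4 CPM in siTfap4 against 21.8 and 29.9 CPM in siNeg libraries (0.46, SE 0.27), and Mcts2 differed by -0.05 (SE 0.26). The groups of Gnas, Nnat and Mcts2 did not overlap in KO against WT, but each difference was under 3 times its SE.

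The remaining loci gave no call. Zrsr1, a splicing factor retrogene inside an intron of Commd1, stood at 33.3 and 34.9 CPM in KO against 35.3 and 23.5 CPM in WT libraries (log2 fold change 0.21, SE 0.26). It stood at 40.9 and 34.8 CPM in siTfap4 against 26.0 and 24.1 CPM in siNeg libraries (0.60, SE 0.27, edgeR adjusted p = 0.142). Its host on the opposite strand, Commd1, a regulator of copper balance, fell in siTfap4 cells, with 14 and 26 counts in siTfap4 against 430 and 235 counts in siNeg libraries (-3.60, SE 0.38, edgeR adjusted p = 3.57e-05), a call kept without any 1 library. The retrogene and its host thus went in opposite directions by value, with Zrsr1 not called. Of 12 hosts and overlapping neighbours 10 were tested, and Commd1 was the only one called in siTfap4 cells, while 0 were called in KO cells. The shares among all tested genes were 11.1% lower and 4.36% higher in siTfap4, and 3.96% lower and 5.99% higher in KO. The 12 are not a separate set, since they include the imprinted genes Trappc9, H13 and Igf2r and some of the further imprinted genes, such as Copg2.

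Trappc9, a subunit of the TRAPP complex, stood at 16.4 and 17.4 CPM in KO against 20.5 and 17.6 CPM in WT libraries (log2 fold change -0.17, SE 0.29). It stood at 35.8 and 21.1 CPM in siTfap4 against 14.8 and 16.9 CPM in siNeg libraries (0.84, SE 0.30, edgeR adjusted p = 0.0648). The siTfap4 difference was called with the correction for base composition (1.33, adjusted p = 0.0126; with the block 1.29, 0.0214) and without siTfap4 replicate 2 (1.16, 0.0163), but was 0.40 without siTfap4 replicate 1 (0.563). Inpp5f, an inositol polyphosphate phosphatase gene, stood at 11.2 and 13.4 CPM in KO against 12.3 and 17.5 CPM in WT libraries (-0.27, SE 0.29), and at 12.9 and 14.6 CPM in siTfap4 against 11.3 and 11.0 CPM in siNeg libraries (0.30, SE 0.31). In both genes both siTfap4 libraries lay above both siNeg libraries. Besides Igf2, Airn and Zim1, the genes with too few counts to test were Nap1l5 (a nucleosome assembly protein-like gene, 0 to 4 counts in each library), Plagl1 (a zinc finger transcription factor, 0 to 13 counts) and Peg13 (a noncoding RNA, 0 or 1 count). At this depth these 6 genes give no comparison.

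In siTfap4 against siNeg cells, which asks what the knockdown of Tfap4 changes in cells without the cluster, the 29 tested imprinted genes had a median log2 fold change of -0.05, beside 0.01 over all tested genes. The medians were -0.11 over the paternally expressed genes, 0.14 over the maternally expressed genes and 0.30 over the mixed genes. Of the 5 imprinted genes that rose in KO cells, H19, Peg3 and Zdbf2 were above 0 in siTfap4 and Grb10 and Impact below 0 (Impact above 0, at 0.13, with the correction for GC content), and none was called. Of the 3 that fell, Phlda2 and Slc22a18 were below 0 and Ascl2 above 0. Over all 29 genes 11 had opposite signs in the comparisons. The share over all tested genes was not counted. Some of these signs rest on values within their SE of 0 in both comparisons, such as Kcnq1ot1 (0.16 in KO and -0.12 in siTfap4) and Snrpn (0.19 and -0.1). Across 15126 genes the log2 fold change in siTfap4 correlated with the GC content of the last 100 transcript bases (r = 0.33), and in KO it did not to that extent (-0.02). This is a description across genes, and its part in the single values was not tested beyond the correction given beside them.

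Genes that keep imprints or set DNA methylation were measured as a fixed list of 29, of which 28 were tested. In KO cells 2 fell and 0 rose, beside 3.96% lower and 5.99% higher over all tested genes. The list median was -0.07. Zfp57, whose protein protects methylated imprints, had 318 and 662 counts in KO against 1478 and 1318 counts in WT libraries, or 24.3 and 54.6 CPM in KO against 120 and 128 CPM in WT. It was 3.14-fold lower (log2 fold change -1.65, SE 0.34, edgeR adjusted p = 0.00646), a call lost without KO replicate 1 (-1.18, adjusted p = 0.0944), and KO replicate 1, the library that expressed Mest, was the lower of the KO duplicates. It stood at 30.7 and 23.2 CPM in siTfap4 against 26.0 and 14.6 CPM in siNeg libraries. Dnmt3l, a cofactor of de novo DNA methylation, stood at 63.7 and 63.3 CPM in KO against 270 and 212 CPM in WT libraries (-1.92, SE 0.24, edgeR adjusted p = 0.000125) and kept its call without any 1 library. Trim28, the corepressor that ZFP57 recruits, stood at 829 and 922 CPM in KO against 1110 and 1160 CPM in WT libraries (-0.37, SE 0.22, edgeR adjusted p = 0.344).

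In siTfap4 cells 1 gene of this list rose and 2 fell, beside 4.36% higher and 11.1% lower over all tested genes. Eed, a subunit of the Polycomb complex that also acts in noncanonical imprinting, had 397 and 1056 counts in siTfap4 against 2948 and 2840 counts in siNeg libraries, and fell by 1.59 on the log2 scale (adjusted p = 0.00421 in edgeR). The Eed call was kept in each fit tried, with log2 fold changes of -1.09 without siTfap4 replicate 1, -2.40 without siTfap4 replicate 2 and -1.10 with the correction for base composition. Uhrf1, which brings the maintenance methyltransferase to replicated DNA, stood at 64.5 and 91.6 CPM in siTfap4 against 164 and 141 CPM in siNeg libraries (-0.96, SE 0.24, edgeR adjusted p = 0.0132). Ehmt2, a histone H3 lysine methyltransferase gene, rose by 0.95 (adjusted p = 0.0245 in edgeR). Uhrf1 lost its call without siTfap4 replicate 1 (0.138) or siNeg replicate 1 (0.0869), and Ehmt2 without siTfap4 replicate 1 (0.332, with a value of 0.51), siNeg replicate 1 (0.126) or siNeg replicate 2 (0.0927), on the 4 libraries alone (0.0508) and with the correction for base composition (0.0883; 0.0796 with the block). The part of these genes in the levels of imprinted genes was not tested, and methylation was not measured.

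Of 44 further imprinted genes fixed as a list, 25 were tested. Over all tested genes 5.99% were higher and 3.96% lower in KO, and 4.36% higher and 11.1% lower in siTfap4. In KO cells 6 of the list rose and 1 fell, with a list median of -0.07. Besides Tspan32, Dio3, Ddc, Casd1 and Atp10a, the riser was Sfmbt2, a Polycomb-related gene expressed from the paternal copy in extraembryonic tissue, with 95.9 and 48.0 CPM in KO against 29.7 and 19.9 CPM in WT libraries (1.53, SE 0.36, edgeR adjusted p = 0.0131). The Sfmbt2 call was lost without KO replicate 1 (0.95, adjusted p = 0.197 in edgeR) or WT replicate 2 (0.118). In siTfap4 cells 0 rose and Gab1 fell, a docking protein gene with noncanonical imprinting in extraembryonic tissue, with 30.3 and 33.6 CPM in siTfap4 against 203 and 120 CPM in siNeg libraries (-2.34, SE 0.28, edgeR adjusted p = 7.34e-05). Gab1 kept its call without any 1 library.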

How the data were processed

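Gene counts of 8 libraries were used as deposited by the authors: whole-number counts per Ensembl gene, with 99.5% of the 55421 identifiers paired with a symbol here through GENCODE M21. Trim Galore and the build GRCm38 are named in the submitters' processing notes. How reads were aligned and counted, whether by strand, and on which annotation is not given in the sources used here. QuantSeq counts the 3′ end of a transcript, so forms that share an end are added up. The imprinted genes and all lists were chosen with earlier results of these data known, and the genes named from a list are those called in either comparison, at most 6, by size of change, plus Casd1, Dhcr7, Trim28, Afp, Cdx2, Rtl1, Nlrp12 and Copg2, chosen after their values were seen.

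Genes were filtered with filterByExpr (15137 left), scaled with TMM and fitted in edgeR 4.0.16 (R 4.3.3) with 4 group means over all 8 libraries (robust quasi-likelihood, legacy = FALSE, 4 residual degrees of freedom), with Benjamini-Hochberg adjustment and a threshold of 0.05. The SE of a log2 fold change was its size divided by the root of F. CPM were computed here. Alternatives were DESeq2 1.42.0, limma-voom (limma 3.58.1), RLE factors, other filters, the 4 libraries of a comparison alone, the replicate number as a block, a correction for GC content of the last 100 bases (lowess span 0.3), and each library left out in turn, where the lone library is assumed to vary like the other groups. The legacy fit was added after seeing the data. The fits were tested on simulated counts. For each comparison, each fold was set in 100 genes drawn from those with a mean above 3 CPM, and no other gene was changed. The rates therefore do not describe genes under that level, and they may differ where many genes change, as in these data. Of the 2-fold changes set, 29% were called in KO against WT and 33% in siTfap4 against siNeg. Of the 4-fold changes 88% and 86% were called, and false calls numbered 14 and 3. A gene without a call may thus still differ 2-fold. Intervals and limits on counts of 0 cover counting error only. Sequences are from RefSeq (GRCm38.p6) and GENCODE M21.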

Additional observations from a re-analysis of the deposited data

How the results depend on the processing

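With 2 libraries a group, single libraries moved the counts more than the settings did. Leaving out each library in turn gave 629 to 880 genes called in KO against WT, where 1506 were called with all libraries, and 522 to 2961 in siTfap4 against siNeg, where 2334 were called. Of the imprinted genes it left 2 to 5 calls in KO and 0 to 4 in siTfap4. The imprinted genes called in siTfap4, 1 in the report, numbered 2 with DESeq2, 0 with limma-voom, 3 with no filter on low counts, 2 with the correction for GC content and 3 with that correction and the replicate block. The cause was not tested.

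The replicate numbers do not pair the samples by the check used: the duplicates' differences correlated across genes at -0.06 between KO and WT and at 0.13 between siTfap4 and siNeg. The labels of KO replicate 2 and WT replicate 1 share an unexplained suffix, and no fit paired them by it. With the replicate block 1337 genes were called in KO and 2064 in siTfap4, and of the imprinted genes 9 and 0.

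Of 809 recomputed log2 fold changes 714 kept their direction and side of the threshold, 26 lost a call, 16 gained one, and 53 changed sign, all of them differences not called in the report. In KO, Dlk1 was at 0.46 with limma-voom and 0.00 with the block. In siTfap4, Kcnq1ot1 was at 0.01 with limma-voom and the block, 0.12 with GC and 0.23 with GC and block, and Cdkn1c at -0.02 with limma-voom, no filter and the block, -0.01 on the 4 libraries, -0.29 with GC and -0.35 with GC and block. Snrpn was at 0.29 and 0.28, Impact at 0.13 and 0.16 and Mcts2 at 0.23 and 0.24 with GC and with GC and block, Ndn at 0.04 with limma-voom, and Peg10 at 0.00 with RLE, 0.56 with GC and 0.51 with GC and block. Without single libraries the KO value ran from 0.00 to 0.16 for Cd81, -0.06 to 0.37 for Kcnq1ot1, -0.24 to 0.53 for Cdkn1c, -0.69 to 0.09 for Ndn, -0.16 to 0.81 for Meg3, -0.85 to 0.18 for Rian, -0.95 to 2.21 for Dlk1, -7.85 to 0.44 for Mest, -0.05 to 0.55 for Zrsr1, -0.32 to 0.02 for H13 and -0.50 to 0.01 for Inpp5f. The siTfap4 value ran from -0.64 to 0.64 for Kcnq1ot1, -0.41 to 0.32 for Cdkn1c, -0.05 to 0.53 for Peg3, -0.59 to 0.26 for Snrpn, -0.52 to 0.63 for Ndn, -0.12 to 0.76 for Rian, -0.14 to 0.98 for Mirg, -0.41 to 0.28 for Peg10, -0.07 to 0.48 for Zdbf2, -0.89 to 0.22 for Impact and -0.57 to 0.36 for Gnas.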
